A study of Mus musculus with 12 samples.

Results

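The upper lip territory of the mouse ventroposterior medial thalamus was compared with the whisker pad territory over both treatments of the lip territory. All 12 libraries of the series entered the comparison, 8 from the lip territory (ALBSF) and 4 from the whisker territory (PMBSF). The difference tested was the mean of Ctrl ALBSF and embWPC ALBSF minus Ctrl PMBSF, so a positive value means a higher level in ALBSF. Within it, the genes that kept their ALBSF level in embWPC pups were sought. Ctrl ALBSF, embWPC ALBSF and Ctrl PMBSF had 4 libraries each, all from postnatal day 0 pups. The labels do not spell out embWPC or name a strain, and embWPC PMBSF was not analysed here. Each library was a pool of 5 brains cut at 300 µm and dissected by hand, so replicates are pools of bulk tissue. P-values measure the spread between such pools.

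The ventroposterior medial nucleus relays touch from the face to the somatosensory cortex. Its neurons are glutamatergic and are laid out as a map, in which neighbouring parts of the face occupy neighbouring parts of the nucleus. Genes that differ between parts of such a map often encode transcription factors, adhesion and guidance proteins, secreted signals and channels.

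Library totals ran from 28457046 to 34512840 counts. Levels are in CPM, each library's counts expressed relative to its TMM-adjusted size. Slc17a6, which loads glutamate into synaptic vesicles, lay between 336 and 430 CPM in the 12 libraries. Lef1, a transcription factor of the thalamus, lay between 85.9 and 120 CPM. Gad2, a GABA-synthesizing enzyme, lay between 0.959 and 8.37 CPM. Ttr, a choroid plexus gene, stood at 98.7 CPM in Ctrl ALBSF 2, at 22.0 CPM in Ctrl PMBSF 2 and at 8.52 CPM or lower in the other libraries. None of these 4 genes, nor any of the 5 X- or Y-linked genes tested, was called between the territories. Mitochondrial transcripts took 1.72% of the counts in Ctrl PMBSF 1, the lowest share, and up to 3.45% in the others.

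In edgeR's quasi-likelihood test, 151 of 17501 genes were called between ALBSF of both treatments and Ctrl PMBSF, which is 0.863% of the genes tested. A gene was called at a Benjamini-Hochberg adjusted p under 0.05. Of these, 62 were higher in ALBSF (0.354%) and 89 were lower (0.509%), and 139 code for proteins. An unadjusted p under 0.05 was reached by 2025 genes. In 92 of the 151, all 8 ALBSF libraries lay on 1 side of the 4 Ctrl PMBSF libraries, against 1.63% of all genes tested. The calls were made on these same libraries, so this separation follows in part from the selection and adds no support to the calls. In bulk tissue, a lower level from fewer cells of a type and one from less RNA per cell cannot be told apart. With same-numbered control libraries as a random block (limma voom), 417 genes were called, and 147 of the 151 were among them. When the 8 ALBSF libraries were fitted as 1 group with no treatment term, 17 genes were called, all within the 151. Leaving out 1 library gave between 53 and 165 calls, and 41 of the 151 were called in each of the 12 such fits. The count fell by more than 1.5 times without Ctrl ALBSF 2 (96), Ctrl ALBSF 3 (68), Ctrl ALBSF 4 (100), Ctrl PMBSF 1 (89), Ctrl PMBSF 2 (53) or Ctrl PMBSF 3 (71).

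The difference from Ctrl PMBSF was unequal in the ALBSF groups. Among the 62 higher genes, the median log2 difference from Ctrl PMBSF was 0.82 for Ctrl ALBSF and 0.49 for embWPC ALBSF. Among the 89 lower genes it was -1.01 for Ctrl ALBSF and -0.56 for embWPC ALBSF. These comparisons share the Ctrl PMBSF libraries. Tested alone, Ctrl ALBSF against Ctrl PMBSF gave 284 calls (1.62%), 142 in each direction (0.811%). There, 2068 genes had an unadjusted p under 0.05. Tested alone, embWPC ALBSF against Ctrl PMBSF gave 1 call (0.00571%), Adgrl2, with 1657 genes at an unadjusted p under 0.05. The next smallest adjusted p was 0.154, and DESeq2 called 74 genes in that comparison. Adgrl2 is thus the 1 gene of the 151 whose difference was also called in embWPC ALBSF alone.

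A gene counted as kept under 3 conditions. It was called, the 95% interval of embWPC ALBSF minus Ctrl ALBSF lay within 1.5-fold either way, and the 8 ALBSF libraries did not overlap the 4 Ctrl PMBSF libraries. This held for 48 of the 151 genes (31.8%), 26 higher and 22 lower in ALBSF. None of the 48 was called in embWPC ALBSF against Ctrl PMBSF alone, where the 1 call was Adgrl2, which was not kept. The interval alone lay within 1.5-fold in 56 called genes (37.1%), against 60.7% of all genes tested. The interval included 0 in 31 of the 48, and it excluded 0 on the Ctrl PMBSF side in the other 17. The averaged difference was itself under 1.5-fold in 36 of the 48. For those a shift that spans much of the territory difference can still fit inside the limits. With the random block, 112 genes were kept.

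**Figure D1:**
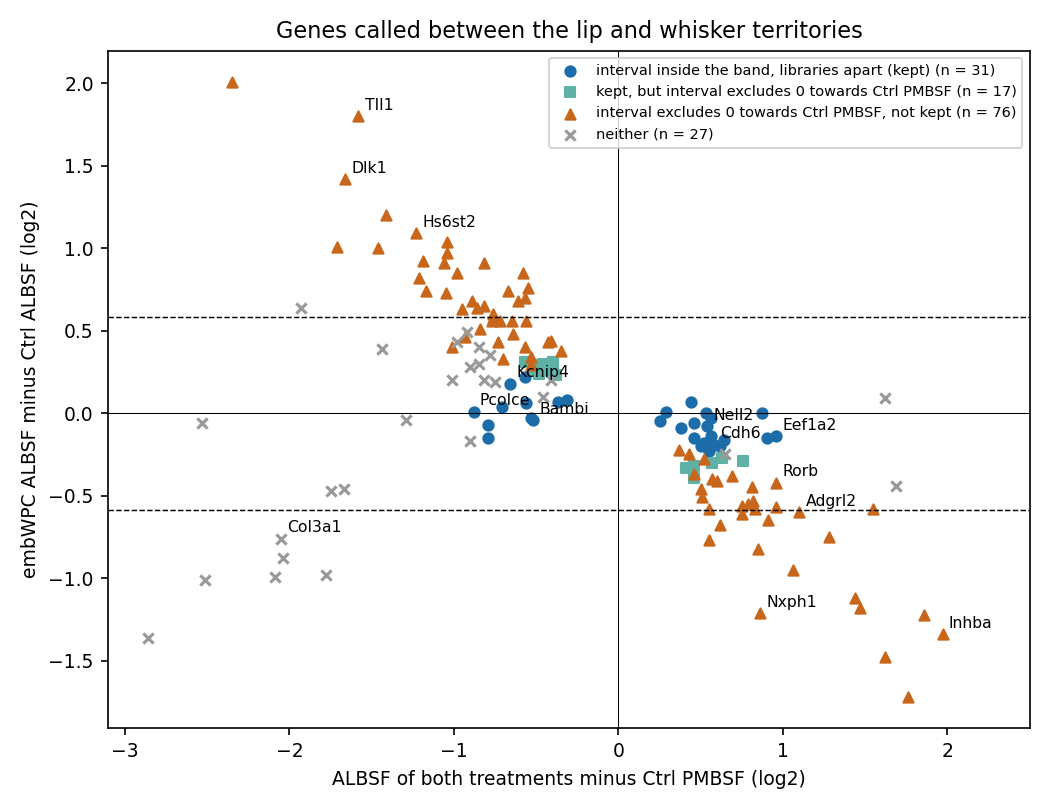
Each point is 1 of the 151 called genes, with the log2 difference of ALBSF of both treatments from Ctrl PMBSF on the horizontal axis and the log2 difference of embWPC ALBSF from Ctrl ALBSF on the vertical axis. Dashed lines mark 1.5-fold either way, and most points right of 0 lie below 0 while most left of 0 lie above it. The exceptions include a group of grey crosses at the lower left that holds Col3a1.

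A gene counted as moved if it was called and the same interval excluded 0 on the Ctrl PMBSF side. This held for 93 of the 151 (61.6%), 39 higher and 54 lower in ALBSF, against 5.84% of all genes tested. The 17 genes named above fall in both counts, and 27 fall in neither. The interval excluded 0 on the other side in 1 called gene, against 3.33% of all genes. On either side, the interval excluded 0 in 94 called genes and in 9.17% of all genes. It is not adjusted for the number of genes. In the adjusted test, embWPC ALBSF against Ctrl ALBSF gave 11 calls (0.0629%), 3 higher (0.0171%) and 8 lower (0.0457%), and 7 of them were among the 151. All 7 lay nearer to Ctrl PMBSF in embWPC pups: Adgrl2, Plxna2, Nxph1, Pcdh10, Tll1, Pou2f2 and Dcdc2a. With the random block 6 genes were called in that comparison and 168 genes counted as moved.

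The kept genes with the firmest calls are described first. In all 12 fits that left out 1 library, 15 genes were kept, and in 6 of these the interval of the treatment difference also included 0. The 6 are Cdh6, Nell2, Cpne4 and Tox, higher in ALBSF, and Kcnip4 and Bambi, lower in ALBSF. They were chosen after their values were seen.

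Cdh6 encodes a type II cadherin, an adhesion molecule used as a marker of thalamic territories (GRCm39 chromosome 15, 13028787 to 13174004). Its level was 197, 192, 203 and 182 CPM in Ctrl ALBSF, 177, 148, 179 and 175 CPM in embWPC ALBSF, and 95.6, 132, 122 and 135 CPM in Ctrl PMBSF. The 3 groups did not overlap: all embWPC ALBSF libraries were below all Ctrl ALBSF libraries, and the lowest of them, embWPC ALBSF 2, was above the highest Ctrl PMBSF library. The averaged log2 difference was 0.58 ± 0.09 (SE; adjusted p = 0.00839, edgeR). The treatment difference was -0.19, with an interval from -0.40 to 0.03.

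Nell2 encodes a secreted glycoprotein that acts in axon guidance through Robo3 (chromosome 15, 94973111 to 95465972). It stood at 243, 226, 243 and 233 CPM in Ctrl ALBSF, 209, 249, 205 and 234 CPM in embWPC ALBSF, and 124, 169, 162 and 177 CPM in Ctrl PMBSF. The ALBSF groups overlapped each other and did not overlap Ctrl PMBSF, where library 1 was lowest. The averaged log2 difference was 0.54 ± 0.09 (SE; adjusted p = 0.0128, edgeR), and the treatment difference was -0.08, with an interval from -0.30 to 0.14.

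Tox encodes a nuclear protein of the HMG-box family (chromosome 4, 6686353 to 6991644). Its level was 48.6, 56.6, 52.5 and 45.1 CPM in Ctrl ALBSF, 42.1, 41.0, 43.6 and 52.0 CPM in embWPC ALBSF, and 29.7, 35.6, 32.8 and 34.7 CPM in Ctrl PMBSF. Again all ALBSF libraries were above all Ctrl PMBSF libraries. The averaged log2 difference was 0.52 ± 0.08 (SE; adjusted p = 0.00916, edgeR), with a treatment difference of -0.18 and an interval from -0.38 to 0.02.

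Cpne4 encodes a copine, a protein that binds membranes in response to calcium (chromosome 9, 104424485 to 104911743). It stood at 40.9, 35.0, 42.9 and 43.7 CPM in Ctrl ALBSF, 32.0, 35.5, 36.7 and 37.5 CPM in embWPC ALBSF, and 28.1, 19.9, 22.5 and 28.3 CPM in Ctrl PMBSF. Both ALBSF groups lay above Ctrl PMBSF, with embWPC ALBSF 1 nearest to it, and they overlapped each other. Cpne4 differed by 0.62 on the log2 scale, averaged over both ALBSF groups (± 0.10 SE; adjusted p = 0.00928, edgeR), and the treatment interval ran from -0.44 to 0.04.

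Kcnip4 encodes a calcium-binding partner of Kv4 potassium channels (chromosome 5, 48546844 to 49682249). It was lower in ALBSF, at 22.8, 23.9, 20.8 and 24.7 CPM in Ctrl and 29.3, 22.4, 32.2 and 20.6 CPM in embWPC, against 43.1, 38.1, 34.5 and 39.8 CPM in Ctrl PMBSF. The embWPC ALBSF libraries were the more spread, and none reached the Ctrl PMBSF range. Kcnip4 had an averaged log2 difference of -0.66 ± 0.11 (SE; adjusted p = 0.00928, edgeR), and the treatment interval ran from -0.10 to 0.45. Kcnip4 is also in the habenular marker list, whose summed level over 15 genes was 150 to 231 CPM in Ctrl ALBSF, 173 to 218 CPM in embWPC ALBSF and 228 to 297 CPM in Ctrl PMBSF. Of its 11 members tested, Kcnip4 and Nhlh2 were called, both lower in ALBSF, and the part of habenular tissue in the result was not tested.

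Bambi encodes a decoy receptor that limits TGF-beta and BMP signalling. Its level was 17.2, 16.1, 17.0 and 14.0 CPM in Ctrl ALBSF, 14.5, 15.8, 16.0 and 16.0 CPM in embWPC ALBSF, and 26.0, 22.6, 22.5 and 19.9 CPM in Ctrl PMBSF. The embWPC range lay within the Ctrl ALBSF range, below every Ctrl PMBSF library. Bambi had an averaged log2 difference of -0.52 ± 0.08 (SE; adjusted p = 0.00839, edgeR), and the treatment difference was -0.04, with an interval from -0.25 to 0.16. With the meningeal marker level of each library as a covariate, Cdh6 (adjusted p = 0.0329), Nell2 (0.0329) and Bambi (0.0355) stayed under the threshold in edgeR. Tox (0.078), Kcnip4 (0.0785) and Cpne4 (0.238) did not. With the covariate the log2 difference was 0.6 for Tox and -0.73 for Kcnip4, no smaller than without it. For Cpne4 it was 0.34.

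**Figure D2:**
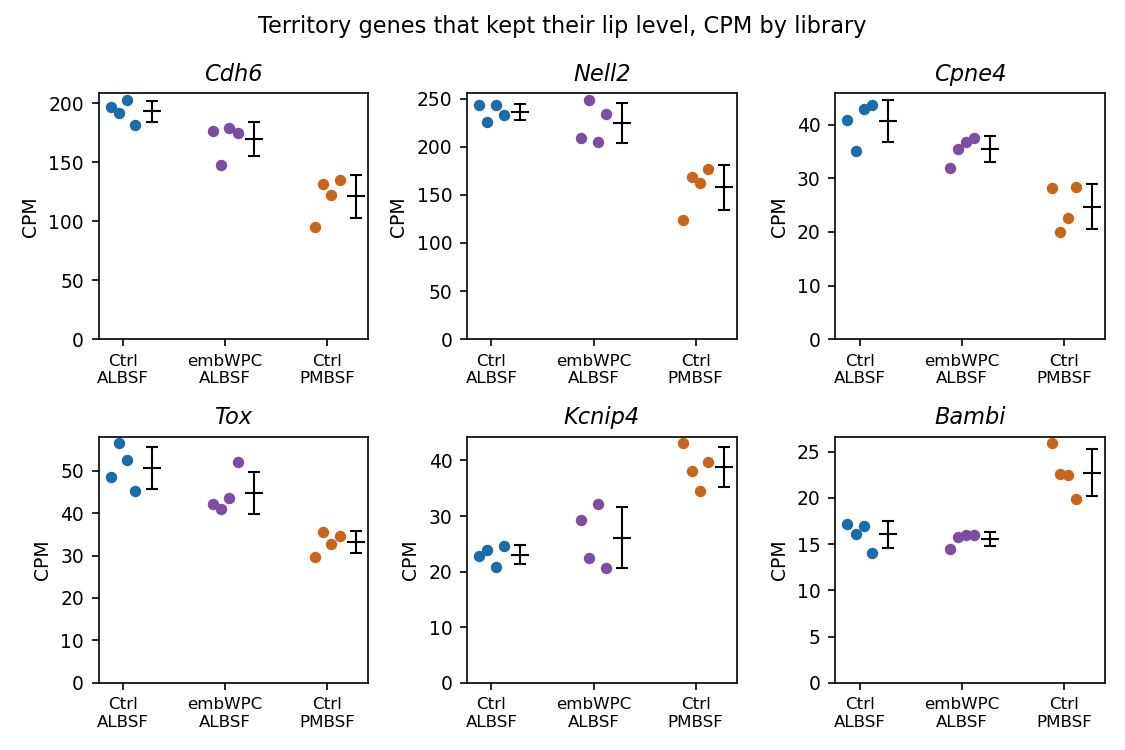
CPM of 6 kept genes in each library, with the mean and SD of the 4 libraries beside each group. Cdh6, Nell2, Cpne4 and Tox are higher and Kcnip4 and Bambi lower in all 8 ALBSF libraries than in the 4 Ctrl PMBSF libraries.

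Other kept genes had larger differences and wider intervals. Eef1a2, a translation elongation factor of neurons and muscle, was between 9.99 and 17.2 CPM in the 8 ALBSF libraries and at 4.00, 7.76, 7.58 and 7.76 CPM in Ctrl PMBSF. Its averaged log2 difference of 0.96 ± 0.18 (SE; adjusted p = 0.0242, edgeR) was the largest among the kept genes that were higher, and the call was lost without Ctrl ALBSF 3, Ctrl PMBSF 2 or Ctrl PMBSF 3. Eef1a2 counted as kept in 4 of the 12 fits that left out 1 library. Pcolce, an enhancer of procollagen processing, was lowest relative to Ctrl PMBSF, at 3.52 to 6.09 CPM in ALBSF against 8.94, 11.2, 7.81 and 8.57 CPM. Its averaged log2 difference was -0.88 ± 0.15 (SE; adjusted p = 0.013, edgeR), with a treatment difference of 0.01 and an interval from -0.38 to 0.39. This call was lost without Ctrl PMBSF 2 and with the meningeal covariate (adjusted p = 0.157).

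Thra, the thyroid hormone receptor alpha gene, was between 163 and 205 CPM in the 8 ALBSF libraries and at 141, 145, 120 and 137 CPM in Ctrl PMBSF. Its averaged log2 difference was 0.44 ± 0.07 (SE; adjusted p = 0.013, edgeR), and the treatment interval ran from -0.11 to 0.25. The call was lost without Ctrl PMBSF 3 and with the meningeal covariate, where the difference was 0.5 (adjusted p = 0.0837, edgeR). Thra was named after its value was seen. Nwd2 was called, with an averaged log2 difference of 0.76, but it overlaps the antisense gene Nwd2os, also called, and strand use in counting is not stated, so their reads cannot be told apart.

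The 17 genes that count as both kept and moved had narrow intervals beside 0. Maoa, the enzyme that degrades serotonin and other monoamines, was at 52.8, 50.1, 59.0 and 52.6 CPM in Ctrl ALBSF, 39.9, 39.2, 42.6 and 42.5 CPM in embWPC ALBSF, and 32.5, 35.3, 32.2 and 37.0 CPM in Ctrl PMBSF. The embWPC libraries lay between the control groups without overlap. Its log2 difference from Ctrl PMBSF was 0.65 in Ctrl ALBSF and 0.26 in embWPC ALBSF. Rims2, a scaffold of the presynaptic release site, showed the reverse order, at 54.4 to 61.7 CPM in Ctrl ALBSF, 66.0 to 75.2 CPM in embWPC ALBSF and 78.0 to 90.3 CPM in Ctrl PMBSF. Fjx1, Mturn, Hdac9, Camk2n1, Cds1 and Sowaha likewise had treatment intervals inside 1.5-fold that excluded 0. For such genes the interval shows a limited shift, not an equal level.

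**Figure D3:**
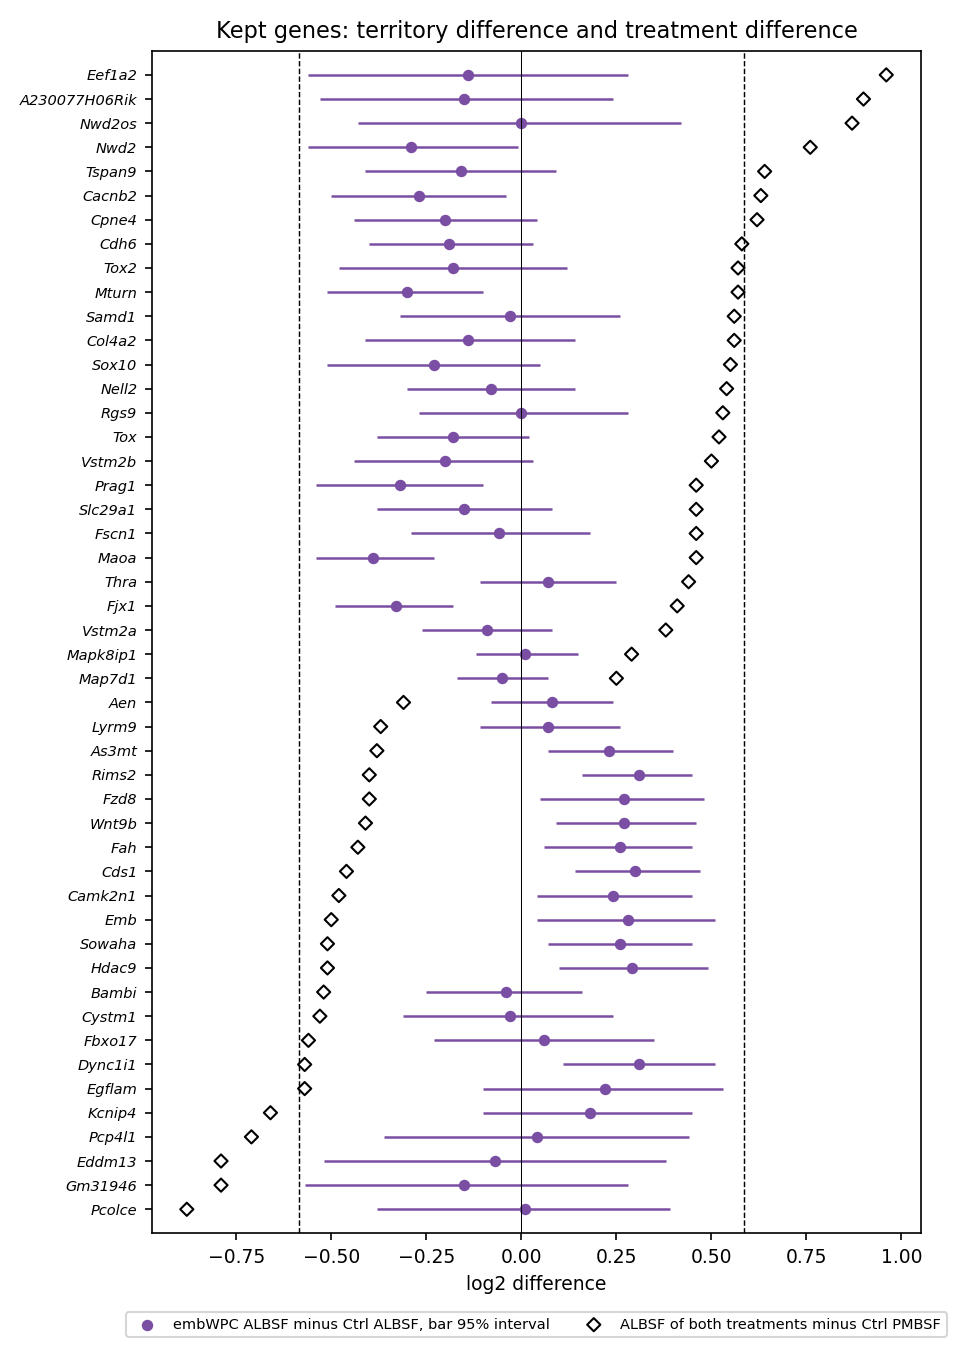
The 48 kept genes with the log2 difference of embWPC ALBSF from Ctrl ALBSF and its 95% interval (filled points, bars) and the averaged log2 difference from Ctrl PMBSF (open diamonds). Dashed lines mark 1.5-fold, and in 36 genes the diamond lies between them.

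Adgrl2 was the only gene called in all 4 comparisons. It encodes latrophilin 2, an adhesion receptor that binds teneurins and Flrt proteins across synapses (chromosome 3, 148518957 to 148696229). Its level was 175, 160, 173 and 179 CPM in Ctrl ALBSF, 118, 117, 103 and 117 CPM in embWPC ALBSF, and 63.7, 67.4, 64.1 and 65.8 CPM in Ctrl PMBSF. The 3 groups did not overlap, and embWPC ALBSF lay between the controls. The averaged log2 difference was 1.10 ± 0.06 (SE; adjusted p = 3.68e-07, edgeR), with 1.39 for Ctrl ALBSF and 0.80 for embWPC ALBSF (adjusted p = 0.000107, edgeR). The treatment difference was -0.60, with an interval from -0.74 to -0.46 (adjusted p = 0.00425, edgeR).

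The promoters of Adgrl2 and of the kept genes Cdh6 and Kcnip4 are shown as examples of an intermediate gene and of kept genes in each direction. They are the 250 bases before a start site in the RefSeq table for GRCm38.p6, on the minus strand, 5′ to 3′. The nuclear receptor half-site AGGTCA, or its reverse complement TGACCT, would be in capitals. It was searched because nuclear receptor genes were among the calls.
Cdh6, chr15:13173676-13173925: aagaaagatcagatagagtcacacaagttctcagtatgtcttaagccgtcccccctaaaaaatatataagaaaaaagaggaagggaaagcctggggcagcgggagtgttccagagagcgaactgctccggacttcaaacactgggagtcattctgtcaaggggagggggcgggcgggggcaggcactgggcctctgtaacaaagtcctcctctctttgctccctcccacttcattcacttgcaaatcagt
Kcnip4, chr5:49285660-49285909: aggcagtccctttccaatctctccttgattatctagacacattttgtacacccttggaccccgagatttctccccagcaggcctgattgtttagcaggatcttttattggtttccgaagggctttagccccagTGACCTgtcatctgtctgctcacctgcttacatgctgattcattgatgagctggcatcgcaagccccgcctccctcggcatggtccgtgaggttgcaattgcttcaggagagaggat
Adgrl2, chr3:148954636-148954885: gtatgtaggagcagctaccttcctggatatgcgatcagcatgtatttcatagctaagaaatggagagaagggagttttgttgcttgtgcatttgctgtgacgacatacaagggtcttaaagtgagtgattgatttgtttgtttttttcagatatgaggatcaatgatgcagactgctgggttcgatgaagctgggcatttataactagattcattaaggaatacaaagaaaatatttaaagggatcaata
One match lies in the Kcnip4 sequence, the start with the match of the 2 listed, and these letters are not in the Cdh6 and Adgrl2 windows. Of 27025 genes with a listed promoter, 15.8% held the half-site. It was held by 18.0% of the 111 called genes with a promoter and by 15.6% of the 32 kept genes with one. The calls and the kept genes thus held it about as often as all genes, with no test made.

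Transcription factors of relay neurons were called in both directions. Of 29 relay identity genes tested, 4 were called higher in ALBSF (Rorb, Nr2f2, Foxp2 and the cadherin Cdh6) and 2 lower. Their median averaged log2 difference was 0.02, against -0.01 over all genes. Over all genes tested 0.354% were called higher and 0.509% lower, and counts in the lists below are to be read beside those shares. All lists were chosen with earlier results of these data known. Rorb, a nuclear receptor of primary sensory relay neurons, was at 65.1, 67.1, 85.6 and 82.0 CPM in Ctrl ALBSF, 49.2, 49.5, 58.6 and 67.0 CPM in embWPC ALBSF, and 29.7, 31.6, 38.1 and 34.0 CPM in Ctrl PMBSF. All ALBSF libraries were above Ctrl PMBSF, by 0.96 ± 0.10 on the log2 scale (SE; adjusted p = 0.00224, edgeR). The treatment interval of Rorb, from -0.67 to -0.17, excluded 0, so it counts as moved, and its lower end lay beyond 1.5-fold, so it does not count as kept. Nr2f2, which encodes the nuclear receptor COUP-TFII, followed the same order, at 35.0 to 45.5, 23.9 to 28.9 and 11.6 to 22.8 CPM. Foxp2 was higher by 0.69, with embWPC ALBSF 1 (121 CPM) just below Ctrl PMBSF 1 (122 CPM). Its call was lost without Ctrl ALBSF 3, Ctrl PMBSF 2 or Ctrl PMBSF 3, and with the meningeal covariate (adjusted p = 0.288, edgeR).

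Ebf1 and Pou2f2 were the called relay genes that were lower in ALBSF. Ebf1, a helix-loop-helix factor, was at 7.17 to 12.3 CPM in Ctrl ALBSF, 10.6 to 14.4 CPM in embWPC ALBSF and 21.0 to 24.7 CPM in Ctrl PMBSF. Its averaged log2 difference was -1.01 ± 0.12 (SE; adjusted p = 0.00224, edgeR), and the ALBSF groups overlapped each other but not Ctrl PMBSF. Pou2f2, an octamer-binding factor, was at 41.4, 43.0, 30.7 and 26.4 CPM in Ctrl ALBSF, 53.9, 59.5, 60.5 and 62.5 CPM in embWPC ALBSF, and 72.3, 75.7, 70.9 and 72.4 CPM in Ctrl PMBSF. Its 3 groups did not overlap, and embWPC ALBSF differed from Ctrl ALBSF by 0.74 (adjusted p = 0.0486, edgeR). The averaged log2 difference of Pou2f2 was -0.67. With the meningeal covariate it was -0.72 and not called between the territories (adjusted p = 0.0837, edgeR). Among 26 markers of first-order and higher-order nuclei, Rorb was called higher, and Hs6st2, Tnnt1 and Htr1b lower. None of these 4 was kept, and with the covariate Rorb and Hs6st2 were the 2 of them still called.

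Of the 13 adhesion and guidance genes called in the lists below, 11 were higher in ALBSF, and Cdh6 alone was kept. Over all genes tested 0.354% were called higher and 0.509% lower. These lists were chosen with earlier results known, and no set test was made. Of 17 classical and type II cadherins tested, 4 were called, all higher: Cdh6, Cdh4, Cdh10 and Cdh18. The last 3 counted as moved, and their ALBSF libraries overlapped Ctrl PMBSF. Cdh10, for example, was at 19.0 to 20.5 CPM in Ctrl ALBSF, 9.90 to 14.2 CPM in embWPC ALBSF and 8.98 to 13.3 CPM in Ctrl PMBSF. Of 10 delta protocadherins, Pcdh10 and Pcdh11x were called higher. Pcdh10 was at 30.3 to 45.8 CPM in Ctrl ALBSF, and its embWPC range of 21.8 to 24.8 CPM overlapped the Ctrl PMBSF range of 18.0 to 24.3 CPM. The Cdh4 and Cdh18 calls were lost in at least 9 of the 12 fits that left out 1 library, the Pcdh10 call in 8 and the Cdh10 call in 4. Without Ctrl PMBSF 2, Cdh6 was the 1 gene of the cadherin list still called, and Pcdh11x the 1 of the delta protocadherin list. With the meningeal covariate Cdh6 alone of both lists was called.

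Teneurins, the partners of latrophilins, were called in both directions. Of 11 latrophilin, teneurin and Flrt genes tested, Adgrl2 and Tenm1 were higher and Tenm2 and Tenm3 lower in ALBSF. Tenm1 was at 58.2, 71.7, 82.8 and 68.3 CPM in Ctrl ALBSF, 47.5, 45.5, 49.9 and 47.3 CPM in embWPC ALBSF, and 28.6, 36.8, 36.9 and 35.1 CPM in Ctrl PMBSF, with no overlap. Tenm3 had the opposite order, at 21.0 to 24.4, 25.6 to 37.6 and 36.9 to 43.0 CPM, and embWPC ALBSF 3 reached into the Ctrl PMBSF range. Averaged over treatments, the log2 difference was 0.75 ± 0.09 for Tenm1 (SE; adjusted p = 0.00224, edgeR) and -0.57 ± 0.09 for Tenm3 (SE; adjusted p = 0.00857, edgeR). The Tenm2 call was lost in 10 of the 12 fits that left out 1 library, and with the meningeal covariate Adgrl2 and Tenm1 were the 2 genes of this list called.

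Plxna2, a receptor for semaphorins, was the only call among 30 semaphorin, plexin and neuropilin genes. It was at 34.1, 47.2, 50.9 and 48.5 CPM in Ctrl ALBSF, 22.7, 23.4, 25.3 and 22.4 CPM in embWPC ALBSF, and 10.8, 14.8, 18.9 and 17.9 CPM in Ctrl PMBSF. The embWPC libraries were closer to Ctrl PMBSF than to Ctrl ALBSF, with no overlap. Robo1, a Slit receptor, and Cntn3, a contactin, were the single calls of 20 and 27 genes tested in their lists, both higher and both moved. Neither was called without Ctrl PMBSF 1, without Ctrl PMBSF 2 or with the meningeal covariate. The Robo1 call held in 4 of the 12 fits that left out 1 library, and the Cntn3 call in 9. Of 22 Eph receptors and ephrins, 0 were called by edgeR and 2 by DESeq2 (Epha4 and Ephb6). An unadjusted p under 0.05 was reached by 6 of them, against 2025 of all 17501 genes tested. Among the 6 was Epha4 at 0.31 (adjusted p = 0.0942, edgeR). With the random block (limma voom), the adjusted p was 0.0278 for Epha4, 0.0464 for Epha3 and 0.0421 for Ephb6.

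**Figure D4:**
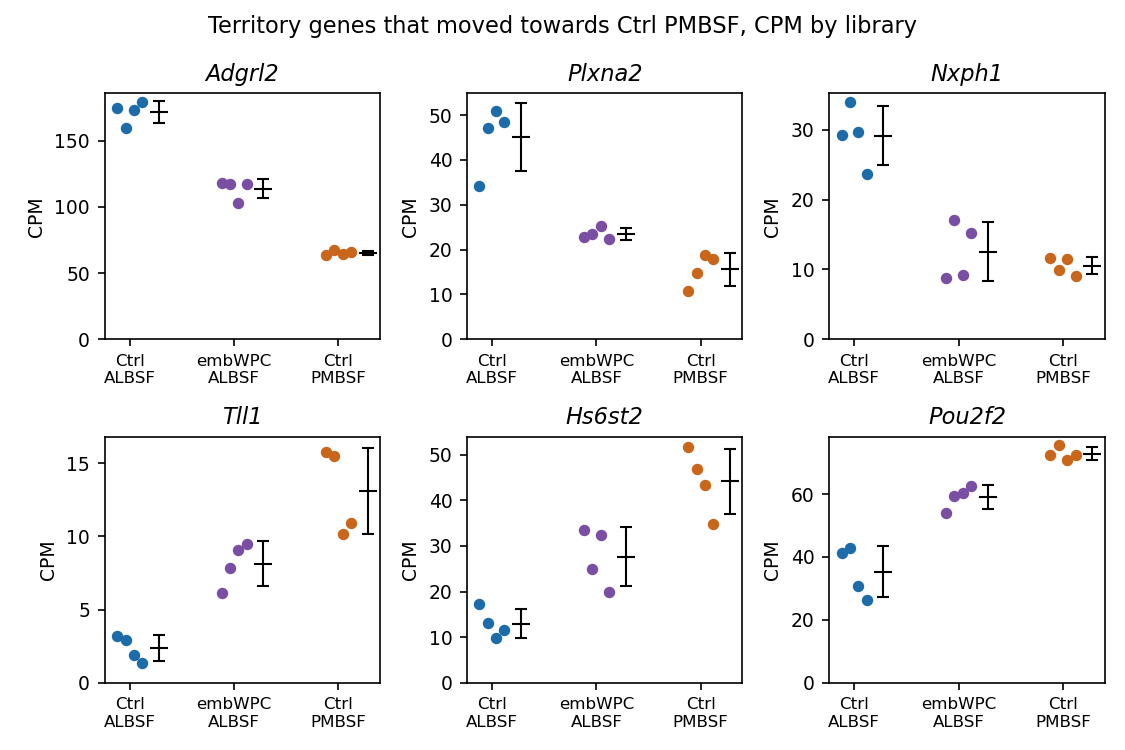
CPM of 6 genes whose embWPC ALBSF level lay nearer to Ctrl PMBSF, by library, with the mean and SD of the 4 libraries beside each group. In Adgrl2, Plxna2, Tll1, Hs6st2 and Pou2f2 all ALBSF libraries lie on 1 side of Ctrl PMBSF, while in Nxph1 the embWPC ALBSF and Ctrl PMBSF libraries overlap.

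Genes of the Wnt, BMP and activin list had some of the largest differences, and none was kept. Of its 39 genes tested, 3 were higher and 4 lower in ALBSF. Inhba, an activin subunit, was at 8.44, 6.40, 7.85 and 14.5 CPM in Ctrl ALBSF, 5.03, 4.52, 3.31 and 1.89 CPM in embWPC ALBSF, and 1.78, 0.552, 2.41 and 1.16 CPM in Ctrl PMBSF. Its averaged log2 difference was 1.97 ± 0.34 (SE; adjusted p = 0.0196, edgeR), and embWPC ALBSF 4 overlapped Ctrl PMBSF. The call was lost without Ctrl PMBSF 2 or Ctrl PMBSF 4. Inhbb, another activin subunit, and Rspo3, an enhancer of Wnt signalling, were the other higher genes.

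Tll1, a metalloprotease of the BMP1 family, had the largest treatment difference of the 7 genes called in both. It was at 3.21, 2.95, 1.90 and 1.32 CPM in Ctrl ALBSF, 6.11, 7.85, 9.10 and 9.51 CPM in embWPC ALBSF, and 15.8, 15.5, 10.2 and 10.9 CPM in Ctrl PMBSF. The groups did not overlap, and the treatment difference was 1.80 on the log2 scale (adjusted p = 0.0215, edgeR). Wif1, a secreted Wnt inhibitor, was at 0.519 to 1.39 CPM in Ctrl ALBSF, 1.07 to 2.65 CPM in embWPC ALBSF and 2.88 to 5.89 CPM in Ctrl PMBSF. Grem1, a BMP antagonist, and Bmp6, a BMP ligand, were also lower, with averaged log2 differences of -1.17 and -0.90. The Bmp6 call held in 1 of the 12 fits that left out 1 library, and with the meningeal covariate its difference was -0.17 (adjusted p = 0.766, edgeR). Without Ctrl PMBSF 2, and likewise with the covariate, Tll1 and Wif1 were the 2 genes of this list called.

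Bambi, Wnt9b and Fzd8 were kept genes of these pathways outside that list. Wnt9b, a Wnt ligand, was at 19.4 to 21.8 CPM in Ctrl ALBSF, 21.5 to 28.1 CPM in embWPC ALBSF and 28.3 to 31.0 CPM in Ctrl PMBSF. Fzd8, a Wnt receptor, was at 10.8 to 13.4, 13.2 to 15.1 and 15.4 to 19.3 CPM. Both had treatment intervals that excluded 0. The Wnt9b call was lost without Ctrl PMBSF 1, Ctrl PMBSF 2 or Ctrl PMBSF 3, and the Fzd8 call held in 2 of the 12 fits that left out 1 library. Of 39 Notch, Shh, FGF and retinoic acid genes, Dlk1, a Notch pathway ligand, and Aldh1a2, a retinoic acid-synthesizing enzyme, were called lower. Aldh1a2 is also 1 of the 17 meningeal fibroblast markers tested. The meningeal covariate is their mean, so it removes part of the Aldh1a2 difference by construction. The averaged log2 difference of Aldh1a2 was -2.09, and -0.47 with the meningeal covariate (adjusted p = 0.729, edgeR), and its call was lost in 8 of the 12 fits that left out 1 library. The Dlk1 call held in those 12 fits and was lost with the covariate (adjusted p = 0.134, edgeR).

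Heparan sulfate and transmitter genes were lower where called, apart from Maoa. Hs6st2, an enzyme that adds sulfate to heparan sulfate, was at 17.3, 13.1, 9.82 and 11.5 CPM in Ctrl ALBSF, 33.4, 24.9, 32.4 and 19.9 CPM in embWPC ALBSF, and 51.8, 46.9, 43.3 and 34.9 CPM in Ctrl PMBSF. The groups did not overlap, and Gpc5, a glypican, was the other call of 39 genes tested in that list. Of 46 neuropeptide, monoamine and histamine genes, Hdc, Htr1b and Drd1 were called lower and Maoa higher. Hdc, which makes histamine, was at 2.91 to 6.95, 5.64 to 10.4 and 9.55 to 17.9 CPM in Ctrl ALBSF, embWPC ALBSF and Ctrl PMBSF. Htr1b, a serotonin receptor, was at 25.8 to 30.6, 34.3 to 49.4 and 40.6 to 56.7 CPM, so embWPC ALBSF overlapped Ctrl PMBSF. The Hdc call was lost without Ctrl PMBSF 1, Ctrl PMBSF 2 or Ctrl PMBSF 3, and the Htr1b call without Ctrl PMBSF 2 or Ctrl PMBSF 4. With the meningeal covariate the Hs6st2, Gpc5 and Hdc calls held, and those of Htr1b, Drd1 and Maoa did not.

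Synaptic and channel genes were called in both directions, beside 0.863% of all genes tested. The lists were chosen with earlier results known, and no set test was made. Of 39 synaptic organisers, Nxph1 and Slitrk6 were higher and Cbln4 was lower. Nxph1, a neurexin ligand, was at 29.3, 33.9, 29.7 and 23.6 CPM in Ctrl ALBSF, 8.79, 17.0, 9.13 and 15.2 CPM in embWPC ALBSF, and 11.6, 9.91, 11.5 and 9.11 CPM in Ctrl PMBSF. The embWPC ALBSF libraries covered the Ctrl PMBSF range, so the averaged difference of 0.86 rests on Ctrl ALBSF, and the call was lost in 6 of the 12 fits that left out 1 library. Of 65 channel genes, Kcnd2, Kcnab1 and Ano3 were higher and Kcnip4 and Kcnh1 lower, and Kcnip4 alone was kept. Of 45 presynaptic genes, Cpne4 and Cpne6 were higher and Rims2 and Cpne8 lower. Of 24 glutamate receptors, Grm4 was called, with an averaged log2 difference of 0.57. The Grm4 and Cpne8 calls each held in 1 of the 12 fits that left out 1 library. Both were lost with the meningeal covariate, with differences of 0.32 for Grm4 (adjusted p = 0.467, edgeR) and -0.27 for Cpne8 (adjusted p = 0.309, edgeR). Of 17 GABA-A and glycine receptors, 0 were called by edgeR and 1 (Gabra2) by DESeq2. An unadjusted p under 0.05 was reached by 7 of them, against 2025 of all 17501 genes tested. Without Ctrl PMBSF 2, Kcnip4 was the 1 gene of the channel list still called, and Cbln4 the 1 of the synaptic organiser list. With the meningeal covariate no gene of the channel list was called. The differences were then 2.02 for Ano3, 0.91 for Kcnab1, 0.58 for Kcnd2, -0.73 for Kcnip4 and -0.85 for Kcnh1. DESeq2 without the covariate gave 1.48, 0.83, 0.44, -0.66 and -1.3 for these genes. Cacnb2, a calcium channel subunit outside that list, was also kept, at 11.4 to 13.9 CPM in Ctrl ALBSF, 8.92 to 12.2 CPM in embWPC ALBSF and 7.21 to 7.76 CPM in Ctrl PMBSF. It was kept in all 12 fits that left out 1 library, and its treatment interval, from -0.50 to -0.04, excluded 0. The averaged difference of 0.63 was 0.66 with the covariate and not called (adjusted p = 0.0837, edgeR).

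The 27 called genes that were neither kept nor moved had a median level of 2.25 CPM, against 28.6 CPM for the kept genes. Of these 27, 24 were lower in ALBSF and 7 belong to the 17 meningeal fibroblast markers tested. The 7 were Col3a1, Col1a2, Dcn, Ogn, Islr, Aldh1a2 and Slc22a6, and the median averaged log2 difference of the list was -1.67. Col3a1, a fibrillar collagen gene, was at 2.67 to 3.77 CPM in Ctrl ALBSF, 1.60 to 2.36 CPM in embWPC ALBSF, and 2.86, 23.7, 8.54 and 5.90 CPM in Ctrl PMBSF. Ctrl PMBSF 2 was far above the rest, and Ctrl PMBSF 1 was within the Ctrl ALBSF range. The Col3a1 call was lost without Ctrl ALBSF 3 or Ctrl PMBSF 2, and the Dcn call without Ctrl PMBSF 2, when none of the 17 markers was called by edgeR. With the random block neither was called (adjusted p = 0.0689 and 0.125, limma voom).

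The summed level of the 18 meningeal markers was 75.8 to 101 CPM in Ctrl ALBSF, 55.9 to 101 CPM in embWPC ALBSF and 88.9 to 151 CPM in Ctrl PMBSF. At most 1 marker was at 0 in any library. The mean log2 CPM of the markers was 0.35 to 0.76 in Ctrl ALBSF, -0.28 to 0.20 in embWPC ALBSF, and 0.50, 2.48, 1.48 and 1.43 in Ctrl PMBSF. The markers thus differed between the groups compared, so as a covariate their mean overlaps with territory and treatment. A call lost with it is not by itself a smaller difference. With this mean as a covariate, 92 genes were called, of which 32 were among the 151, and 13 of the 48 kept genes were called. Adgrl2, Rorb, Ebf1, Nr2f2, Tenm1, Plxna2, Tll1, Hs6st2, Rims2 and Eef1a2 were among those still called.

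**Figure D5:**
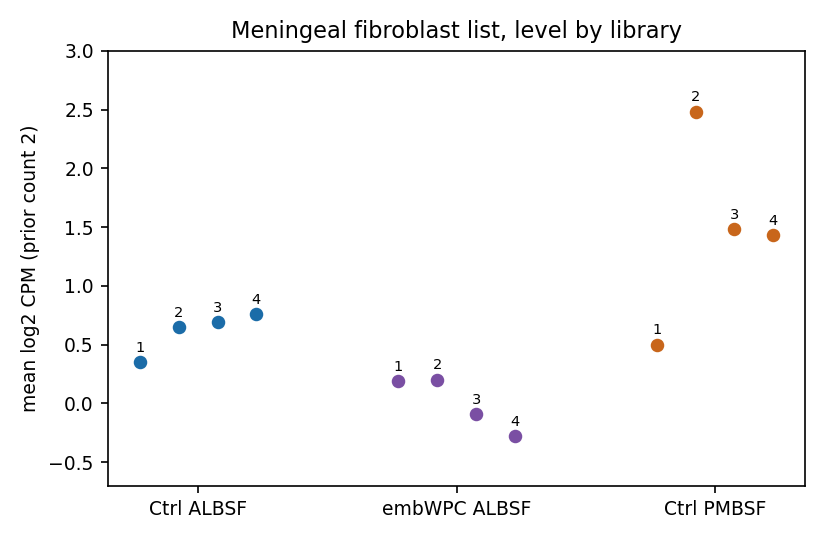
Mean log2 CPM (prior count 2) of the meningeal fibroblast markers in each library, with the replicate number beside each point. Ctrl PMBSF 2 is highest at 2.48, Ctrl PMBSF 1 at 0.50 lies among the Ctrl ALBSF libraries, and the embWPC ALBSF libraries lie at or below 0.20.

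Markers of other tissues gave few calls. Over all genes tested 0.863% were called, and at that share lists of this size would hold few or no calls. None of the endothelial and mural (24 tested), erythroid (7), GABAergic prethalamic (16), hypothalamic (9), choroid plexus (9), astrocyte (20), microglia (14) or cell cycle (20) genes was called by edgeR, with 0 to 7 per list at an unadjusted p under 0.05. Over all 17501 genes tested, 2025 reached that p. Among these marker lists, DESeq2 called Hbb-bh1 higher and Gfap and Mrc1 lower. Rgs5, a mural cell gene with an averaged log2 difference of 0.44 (adjusted p = 0.197, edgeR), was called higher with the random block (adjusted p = 0.0435, limma voom) and with the replicate number as a block term (adjusted p = 0.0179, edgeR). Gfap, at -2.47 (adjusted p = 0.0879, edgeR), was called lower without Ctrl PMBSF 1 (adjusted p = 0.045, edgeR) and with no count filter. Of the 16 GABAergic prethalamic genes, 1 had a positive averaged difference, and 0 had an unadjusted p under 0.05. Their median was -0.30 averaged over treatments. Against Ctrl PMBSF it was 0.08 for Ctrl ALBSF and -0.63 for embWPC ALBSF. The summed level of 11 erythroid genes was 403 to 778 CPM in embWPC ALBSF, below the 871 to 1334 CPM of Ctrl ALBSF and the 799 to 1019 CPM of Ctrl PMBSF, with no overlap. The median treatment difference of the 7 tested was -0.74 on the log2 scale. The blood marker level thus separated embWPC ALBSF from both control groups, and its part in the kept and moved counts was not tested. Sox10 was called higher among 16 oligodendrocyte genes, and Rgs9 higher and Drd1 lower among 14 cortical and striatal genes. All 12 mitochondrially encoded genes tested had positive values, with a median of 0.30, and none was called by edgeR or DESeq2. With the meningeal covariate 5 of them were called. Jund was the single call of 21 immediate early genes. Without Ctrl PMBSF 2, none of Sox10, Rgs9, Drd1 and Jund was called.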

How the data were processed

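RNA of 12 libraries, 4 per group, was measured by poly(A) RNA sequencing with paired 150-nucleotide reads. The deposited values are raw counts per Ensembl gene, which the authors made with STAR 2.7.9a on GRCm39 and featureCounts of Subread 2.0.1 on Ensembl release 104, per the labels and the series design. The submitters' processing notes also list mm10. Strand, multi-mapping and pair settings are not given in the sources used here. Of 55359 genes, 54749 (99.9838% of counts) were matched to GENCODE M39 for symbols and GRCm39 positions.

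The tests used edgeR 4.0.16 under R 4.3.3 (quasi-likelihood, TMM, filterByExpr by group, 3 groups in 1 fit, Benjamini-Hochberg over 17501 genes). Alternatives used DESeq2 1.42.0 and limma 3.58.1. Intervals at 95% use the fit's standard error with the moderated dispersion. With equal group sizes, the averaged contrast and the treatment contrast are orthogonal in the design only where the ALBSF groups vary alike; both use the ALBSF libraries. The median SD of log2(CPM + 1) was 0.132, 0.143 and 0.147 in Ctrl ALBSF, embWPC ALBSF and Ctrl PMBSF. Same-numbered Ctrl ALBSF and Ctrl PMBSF libraries deviated together (r = 0.39, 0.20, 0.33 and 0.40), while embWPC ALBSF did not pair with either (r from -0.15 to 0.05), so the random block pairs the controls only. Every pair of libraries differed beyond sampling noise (chi-square of 14 or more per degree of freedom).

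The comparison, the 33 gene lists and the rules were chosen with earlier results of these data known. Named genes were up to 10 called genes per direction with the largest difference, libraries apart and a mean of 1 CPM, up to 10 kept genes per direction and 10 moved genes under like conditions, up to 3 members of each list with the smallest p, and check genes. Nell2, Tox, Thra, Wnt9b, Fzd8 and other called genes outside that rule, the AGGTCA search and the 3 promoters were chosen after values were seen. Summed list levels are CPM without TMM scaling. Other settings were 2 scalings, 2 filters, a replicate number term, a random block, a meningeal covariate, 1 ALBSF group, other limits for kept genes and leaving out each library.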

Additional observations from a re-analysis of the deposited data

Results flagged for a closer look

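In 52 genes and 3 groups of 4 libraries, 9 of 156 groups had 1 library far from the other 3, where chance gives about 5%. Ctrl PMBSF 1 was lowest in Ano3 (0.297 CPM, against 0.644 to 0.691 in the others), Eef1a2 (4.00 CPM, against 7.58 to 7.76) and Samd1 (5.35 CPM, against 8.45 to 8.82). Of the genes with the firmest calls, Adgrl2 was lowest in embWPC ALBSF 3 (103 CPM, against 117 to 118), Cdh6 in embWPC ALBSF 2 (148 CPM, against 175 to 179) and Bambi in embWPC ALBSF 1 (14.5 CPM, against 15.8 to 16.0). Pcdh10 was also lowest in embWPC ALBSF 1, at 21.8 CPM. Islr was highest in embWPC ALBSF 3, at 0.827 CPM, and Prox2 was highest in Ctrl PMBSF 3, at 2.24 CPM. The Adgrl2, Cdh6 and Bambi calls held in each fit that left out 1 library.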

How the results depend on the processing

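With the meningeal covariate the averaged difference of 4 called meningeal markers turned or went to 0. They were Col3a1 (0.01, adjusted p = 0.994, edgeR), Dcn (0.16, adjusted p = 0.873, edgeR), Col1a2 (0.09, adjusted p = 0.913, edgeR) and Slc22a6 (0, adjusted p = 0.997, edgeR). The covariate is the mean over the marker list that holds these genes, so it removes their difference largely by construction. Calls for ALBSF of both treatments against Ctrl PMBSF numbered 151, and they were 276 with no count filter, 401 with DESeq2, 417 with the random replicate block, 92 with the covariate and 17 with ALBSF as 1 group. Leaving out 1 library gave 53 to 165. The share of these calls that were higher was 41.1%, against 50.6% with DESeq2, 55.4% with the covariate and 70.6% with 1 ALBSF group.

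For embWPC ALBSF against Ctrl ALBSF, the 11 calls became 121 with no filter, 5 with at least 1 CPM in 4 libraries, 178 with DESeq2, 75 with voom quality weights, 23 with the replicate number as a block term, 6 with the random block and 24 with the covariate, and 1 to 37 without 1 library. Ctrl ALBSF against Ctrl PMBSF gave 284, and 527 with DESeq2, 443 with quality weights, 879 with the random block and 127 to 282 without 1 library. For embWPC ALBSF against Ctrl PMBSF, the 1 call became 72 with no filter, 74 with DESeq2, 3 with the number as a block term, 0 with the covariate and 1 to 3 without 1 library. The 0 is edgeR's.

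Kept genes numbered 48, and 115 with DESeq2, 112 with the random block, 18 with the covariate, 14 with limits of 1.3-fold, 71 with limits of 2-fold, 31 if the interval had to include 0 (added after seeing the data) and 23 to 46 without 1 library. Moved genes numbered 93, and 168 with DESeq2, 168 with the random block, 19 with the covariate and 39 to 105 without 1 library. The cause of these differences was not tested. The covariate differed between the groups, so its effect on these counts cannot be told apart from territory and treatment. With the replicate number as a block term, 179 genes were called, 121 of them among the 151. The ALBSF libraries of both treatments can differ in dissection, which the markers used here measure only in part. Pools of 5 brains hide differences between pups, and embWPC PMBSF was not analysed here.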
